A study of Mus musculus with 17 samples.

Results

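The comparison described here set colon RNA of 9 CD4cre samples against colon RNA of 8 WT samples over all days of a challenge with dextran sodium sulfate (DSS), and asked which genes differed between the genotypes in the same direction on each of the 3 days. All 17 samples of the series entered it. The difference was estimated in 1 linear model with the day of DSS as a factor, so that a change shared by both genotypes over the days does not count as a genotype difference. A probe set is a set of short probes on the array that reports on 1 transcript region. Of 45037 probe sets tested, 15 had an adjusted p under 0.05 (limma, two-sided, Benjamini-Hochberg over all probe sets), which is 0.0333%, and such probe sets are called below. All 15 had the same sign on days 0, 2 and 7, and 14 were higher (0.0311% of those tested) and 1 was lower (0.00222%) in CD4cre mice. They comprised 11 probe sets of 9 named genes, 1 probe set shared by Zbed6 and Zc3h11a, and 3 probe sets that were left unnamed here.

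CD4cre mice carried floxed PPAR γ alleles and a Cre transgene driven by the CD4 promoter. The CD4 promoter is active in thymocytes before they commit to the helper or the cytotoxic lineage, so both kinds of T cell lack the gene. WT mice were Cre-negative, both genotypes were on a C57BL/6J background, and neither the labels nor the methods state the Pparg alleles of the WT mice, although the study's wording can be read as Cre-negative mice of the same floxed line. The mice received no DSS (day 0) or 2.5% DSS in the drinking water for 2 or 7 days, with 3 arrays per genotype and day except for WT mice on day 7, which had 2. The age and sex of the animals, and whether 1 array held the RNA of 1 mouse, were not given in the sources used here.

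PPAR γ is a nuclear receptor that binds fatty acids and their derivatives and, as a partner of RXR, switches on genes of lipid handling and restrains inflammatory genes. In the colon it is most abundant in epithelial cells, and T cells are a small share of the tissue. DSS is a polysaccharide that injures the colonic epithelium and brings leukocytes into the mucosa, so many transcripts of whole colon move with the day of treatment. A difference between genotypes that is already there without DSS and persists through injury is a different kind of difference from one that appears with inflammation.

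The values are log2 gcRMA values, and a difference of 1 is a doubling of the signal. A background level of 3.26 was taken as the 95th percentile over 105 probe sets of genes that belong to unrelated tissues, and between 51.6% and 52.8% of probe sets were above it on each array. Genes of pancreatic digestive enzymes had a median of 11.8 to 12.5 on 3 arrays (replicate 2 of CD4cre on day 0, replicate 1 of CD4cre on day 2 and replicate 2 of WT on day 2), and of at most 2.60 on the others; pancreatic transcripts do not belong to the labelled colonic mucosa. The score that sets posterior Hox genes against anterior Hox genes, which differ in expression along the gut, ranged from -1.49 to 1.13 in WT and from -1.26 to 0.52 in CD4cre mice. The difference between 3' and 5' probe sets of Gapdh, a sign of RNA integrity, ranged from -0.15 to 0.25 in WT and from -0.08 to 0.58 in CD4cre mice (difference of the day means 0.14, two-sided exact permutation test within days, p = 0.102). T cell markers were near background in whole colon: 7 of 20 measured were above it, Cd3e had a mean of 2.20 and Cd4 one of 3.49.

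Wdfy1 rose most. It encodes an endosomal protein with WD40 repeats and a FYVE domain, and it is known as an adaptor that links Toll-like receptors 3 and 4 to TRIF. In probe set 1424749_at the 8 WT samples had log2 values of 3.90 to 4.72 (median 4.35) and the 9 CD4cre samples had values of 7.17 to 8.43 (median 8.01). No CD4cre sample came near any WT sample, and this held for each day. The difference was 3.59 (SE 0.18, 95% interval 3.21 to 3.97, limma adjusted p = 2.54e-07, higher in 9 of 9 CD4cre samples than in any WT sample), which is 12.1-fold. It was 3.49 on day 0, 3.84 on day 2 and 3.40 on day 7.

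Both other well-detected probe sets of Wdfy1 gave nearly the same picture. Probe set 1437358_at ranged from 6.39 to 7.35 in WT (median 6.63) and from 9.19 to 10.09 in CD4cre mice (median 9.88). Its difference was 3.04 (SE 0.15, limma adjusted p = 2.54e-07, 8.21-fold). Probe set 1435588_at ranged from 4.91 to 6.93 in WT (median 6.61) and from 9.12 to 9.98 in CD4cre mice (median 9.46), a difference of 3.09 (SE 0.23, limma adjusted p = 4.63e-05). The lowest WT value, 4.91, was that of WT day 2 replicate 1, and the genotypes did not overlap in any of the 3 probe sets. A further pair of Wdfy1 probe sets, 1453426_a_at and 1447543_at, had mean values of 2.30 and 2.13, below the background level, and differences of 0.04 and 0.01. An effect of the day of DSS on 1424749_at was not called (limma adjusted p = 0.696).

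**Figure D1:**
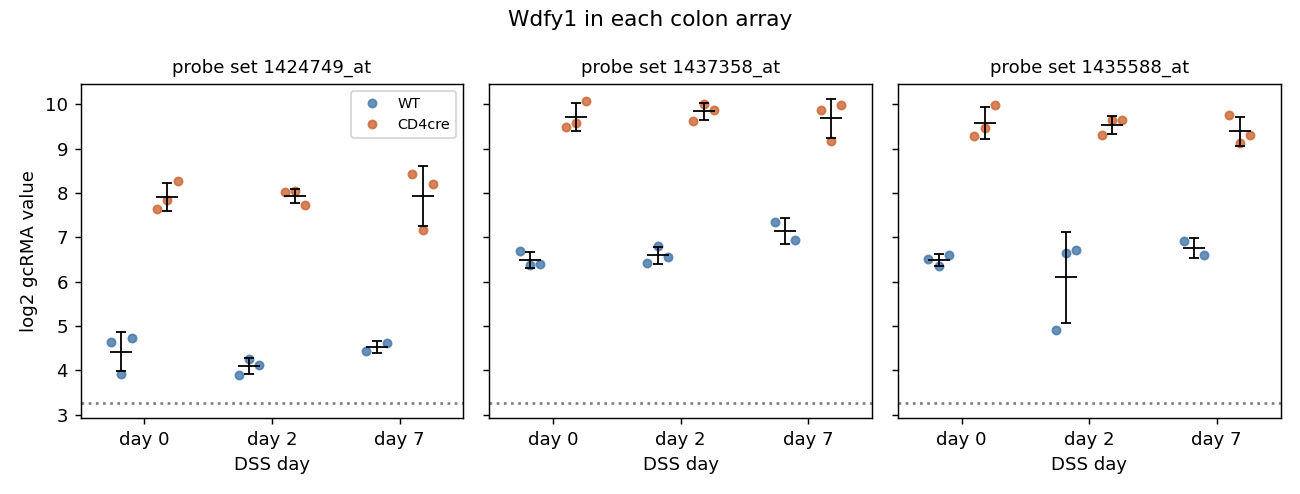
Log2 gcRMA values of the 3 called Wdfy1 probe sets in each of the 17 arrays, by DSS day and genotype (blue WT, orange CD4cre; black marks are the group mean and SD, n = 3, and n = 2 for WT on day 7; the dotted line is the background level of 3.26). In each panel every CD4cre value lies above every WT value on all 3 days.

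None of the 10 measured genes next to Wdfy1 on its chromosome, 5 on each side, was called over all days (limma, against 0.022% of all genes). Of the 10, 6 had the same sign on the 3 days (37.8% of all genes). At an unadjusted p under 0.05 there were 2, against 4.99% of all genes higher and 5.22% lower. These 2, named after their values were seen, were Kcne4, a potassium channel subunit, at 0.84, and Mrpl44, a protein of the mitochondrial ribosome, at -0.24. Pparg itself, the targeted gene, is expressed mostly outside T cells in this tissue, so it is a weak check of the deletion here, and fewer cells of a type and less RNA per cell cannot be told apart in whole colon. Its values ran from 9.18 to 11.21 in WT and from 8.28 to 10.62 in CD4cre mice, and the genotypes overlapped widely. The difference was -0.13 (SE 0.34, limma adjusted p = 0.837), with -0.59 on day 0, 0.72 on day 2 and -0.63 on day 7. Of 40 measured neighbours of Pparg, 20 on each side, none was called over all days (limma). The same sign on the 3 days was found for 13 of the 40, against 37.8% of all genes. An unadjusted p under 0.05 was found for 5, against 4.99% of all genes higher and 5.22% lower. Nnt, which separates C57BL/6 substrains, had a difference of -0.02 (SE 0.12, limma adjusted p = 0.936).

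The next largest differences of named genes were much smaller. Jade1, a subunit of the HBO1 histone acetyltransferase complex, ranged in probe set 1426753_at from 6.34 to 6.77 in WT (median 6.54) and from 6.82 to 7.91 in CD4cre mice (median 7.48). The lowest CD4cre value, that of day 7 replicate 3, was just above the highest WT value, that of day 0 replicate 3. The difference was 0.96 (SE 0.09, limma adjusted p = 0.000903, 1.95-fold), with 1.13 on day 0, 0.81 on day 2 and 0.95 on day 7. The other 3 Jade1 probe sets were not called, with differences of 0.08 to 0.33, so the difference was seen by 1 of 4 probe sets. On day 7, 1426752_at, the brightest of them, was at -0.02 and 1452179_at at -0.25. Msl1, a scaffold of the MSL complex that acetylates histone H4, ranged from 8.40 to 9.06 in WT and from 8.96 to 9.59 in CD4cre mice (probe set 1428872_at). These overlapped only across days. It rose by 0.50 (SE 0.06, limma adjusted p = 0.00685), and its other 3 probe sets had differences of 0.10 to 0.28 that were not called. Of the 4 Msl1 probe sets, 3 had the same sign on all 3 days.

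Ccnl2 encodes cyclin L2, a nuclear speckle cyclin that works with cyclin-dependent kinases in splicing. Luc7l3 encodes a protein of the U1 snRNP that helps to choose the 5' splice site. Pcf11 encodes a subunit of the machinery that cleaves and polyadenylates the 3' ends of transcripts. The 250 bases upstream of 1 annotated start of each of these 3 genes are shown as examples of called genes whose products act on pre-mRNA. They were picked after their values were seen. In the same assembly the windows of Ccnl2 and Luc7l3 lie inside the annotated gene spans (chr4:155810219-155824543 and chr11:94291073-94322329). The window of Pcf11 overlaps its span, which starts at 92670080 on the minus strand. Other starts of these genes were not searched. The windows (RefSeq, GRCm38.p6, 5′ to 3′ on the gene's strand) have the motifs CCAAT and GGGCGG and their reverse complements in capitals where a search of both strands found them:
Ccnl2, chr4:155812239-155812488, strand plus: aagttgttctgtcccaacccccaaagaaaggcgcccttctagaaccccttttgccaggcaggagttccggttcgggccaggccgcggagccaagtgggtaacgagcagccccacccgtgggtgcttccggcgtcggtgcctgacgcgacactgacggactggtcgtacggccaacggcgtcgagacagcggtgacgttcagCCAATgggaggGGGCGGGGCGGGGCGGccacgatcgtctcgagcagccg
Luc7l3, chr11:94321964-94322213, strand minus: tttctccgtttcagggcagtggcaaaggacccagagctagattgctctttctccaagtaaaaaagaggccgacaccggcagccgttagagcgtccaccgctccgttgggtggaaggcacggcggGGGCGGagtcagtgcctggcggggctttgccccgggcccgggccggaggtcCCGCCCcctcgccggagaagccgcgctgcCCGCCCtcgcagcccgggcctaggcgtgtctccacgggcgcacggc
Pcf11, chr7:92669913-92670162, strand minus: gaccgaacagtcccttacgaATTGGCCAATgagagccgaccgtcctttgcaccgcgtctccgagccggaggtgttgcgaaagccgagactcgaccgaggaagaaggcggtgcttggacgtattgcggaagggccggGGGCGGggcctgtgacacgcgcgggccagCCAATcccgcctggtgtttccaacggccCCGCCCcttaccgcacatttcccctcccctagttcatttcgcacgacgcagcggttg
The motif GGGCGG, the core of the GC box, was found 3 times in the window of Ccnl2 (overlapping each other), 3 times in that of Luc7l3 and 2 times in that of Pcf11. Of 27025 promoters (1 window a gene), 32.9% hold it in a window of the same length. CCAAT was found 1 time in the window of Ccnl2 and 3 times in that of Pcf11 (1 pair side by side), and 34.5% of promoters hold it. Of the 9 called genes, 7 matched the promoter table. Of these 7, GGGCGG was found in 5, CCAAT in 2, and the half-site AGGTCA of nuclear receptors in 1, Tnrc6a, and 13.8% of promoters hold AGGTCA. The share of G and C was 66.8% in the window of Ccnl2, 69.6% in that of Luc7l3 and 64.4% in that of Pcf11. The median of all promoters was 52%, and the shares of promoters with a motif are not adjusted for this. A match is a run of letters and not a shown binding site.

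Ccnl2 ran from 9.50 to 10.04 in WT samples and from 9.74 to 10.53 in CD4cre samples in probe set 1454149_a_at. Within each day every CD4cre sample was above every WT sample, and across days the groups overlapped. Its difference was 0.44 (SE 0.05, limma adjusted p = 0.00685), with 0.34 on day 0, 0.48 on day 2 and 0.50 on day 7. A second probe set of Ccnl2 had a difference of 0.37 that narrowly missed the threshold (limma adjusted p = 0.0505), and the third one of 0.14. Of the 3 Ccnl2 probe sets, 2 had the same sign on all 3 days. Luc7l3 ran from 10.73 to 11.26 in WT samples and from 10.91 to 11.50 in CD4cre samples, again with an overlap only across days. It rose by 0.31 (SE 0.04, limma adjusted p = 0.0145), and by 0.41 on day 2 where the difference was largest. Its probe set 1451485_at had a difference of 0.29 that was not called (limma adjusted p = 0.381). Probe set 1437570_at of the same gene changed sign, with 0.06, 0.54 and -0.28 on days 0, 2 and 7. Pcf11 ranged from 7.32 to 7.64 in WT and from 7.68 to 7.98 in CD4cre mice, with no overlap over the 17 samples. Its difference was 0.35 (SE 0.05, limma adjusted p = 0.0148), and it was nearly even over the days, with 0.38, 0.36 and 0.32. Of its 4 probe sets, 3 had a higher value in CD4cre mice and 1 a lower one, and 3 had the same sign on all 3 days.

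Probe set 1415764_at is assigned to both Zbed6 and Zc3h11a, so its signal cannot be given to either gene. Zc3h11a encodes a zinc finger protein of mRNA export, and Zbed6 is a transcription factor gene that arose inside it. The probe set ranged from 10.80 to 11.27 in WT and from 11.12 to 11.73 in CD4cre mice. It rose by 0.33 (SE 0.04, limma adjusted p = 0.00685), and the highest values of both genotypes were those of day 7. Tnrc6a encodes GW182, the scaffold through which microRNA-loaded Argonaute silences its targets. Its values ran from 9.38 to 9.86 in WT and from 9.76 to 10.10 in CD4cre mice. It rose by 0.32 (SE 0.05, limma adjusted p = 0.043). Of 9 Tnrc6a probe sets, 8 had higher values in CD4cre mice, and the remaining one lay below the background level. The sign was the same on all 3 days for 7 of the 9.

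Called differences in subunits of phosphatases were the smallest. Ppp1r12a, the myosin-targeting subunit of protein phosphatase 1, ranged from 10.03 to 10.35 in WT and from 10.26 to 10.70 in CD4cre mice. It rose by 0.28 (SE 0.04, limma adjusted p = 0.039). Ppp2r2a, a regulatory B subunit of protein phosphatase 2A, ranged from 8.86 to 9.02 in WT and from 9.03 to 9.35 in CD4cre mice, so that the groups lay side by side with no overlap. It rose by 0.18 (SE 0.03, limma adjusted p = 0.0499), a 1.14-fold difference at a residual SD of 0.06. For both genes 1 other probe set had a difference of the opposite sign, -0.18 for Ppp1r12a and -0.10 for Ppp2r2a, and neither was called. The sign was the same on all 3 days for 2 of 4 Ppp1r12a and 2 of 3 Ppp2r2a probe sets. The brightest Ppp1r12a probe set, 1437735_at, was at -0.001 on day 0.

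Among the 3 unnamed probe sets was the only called one that was lower in CD4cre mice. Probe set 1457386_at ranged from 6.21 to 6.43 in WT and from 5.44 to 6.03 in CD4cre mice without overlap, and it fell by 0.58 (SE 0.06, limma adjusted p = 0.00226). Probe set 1455744_at ranged from 4.33 to 5.81 in WT and from 6.04 to 7.45 in CD4cre mice. Its difference of 1.44 (SE 0.17, limma adjusted p = 0.00413) was even over the days, with 1.46, 1.37 and 1.51. Probe set 1443534_at ranged from 6.79 to 7.56 in WT and from 7.73 to 9.18 in CD4cre mice, a difference of 1.18 (SE 0.16, limma adjusted p = 0.0149). After Wdfy1, these last 2 had the largest differences of all called probe sets.

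**Figure D2:**
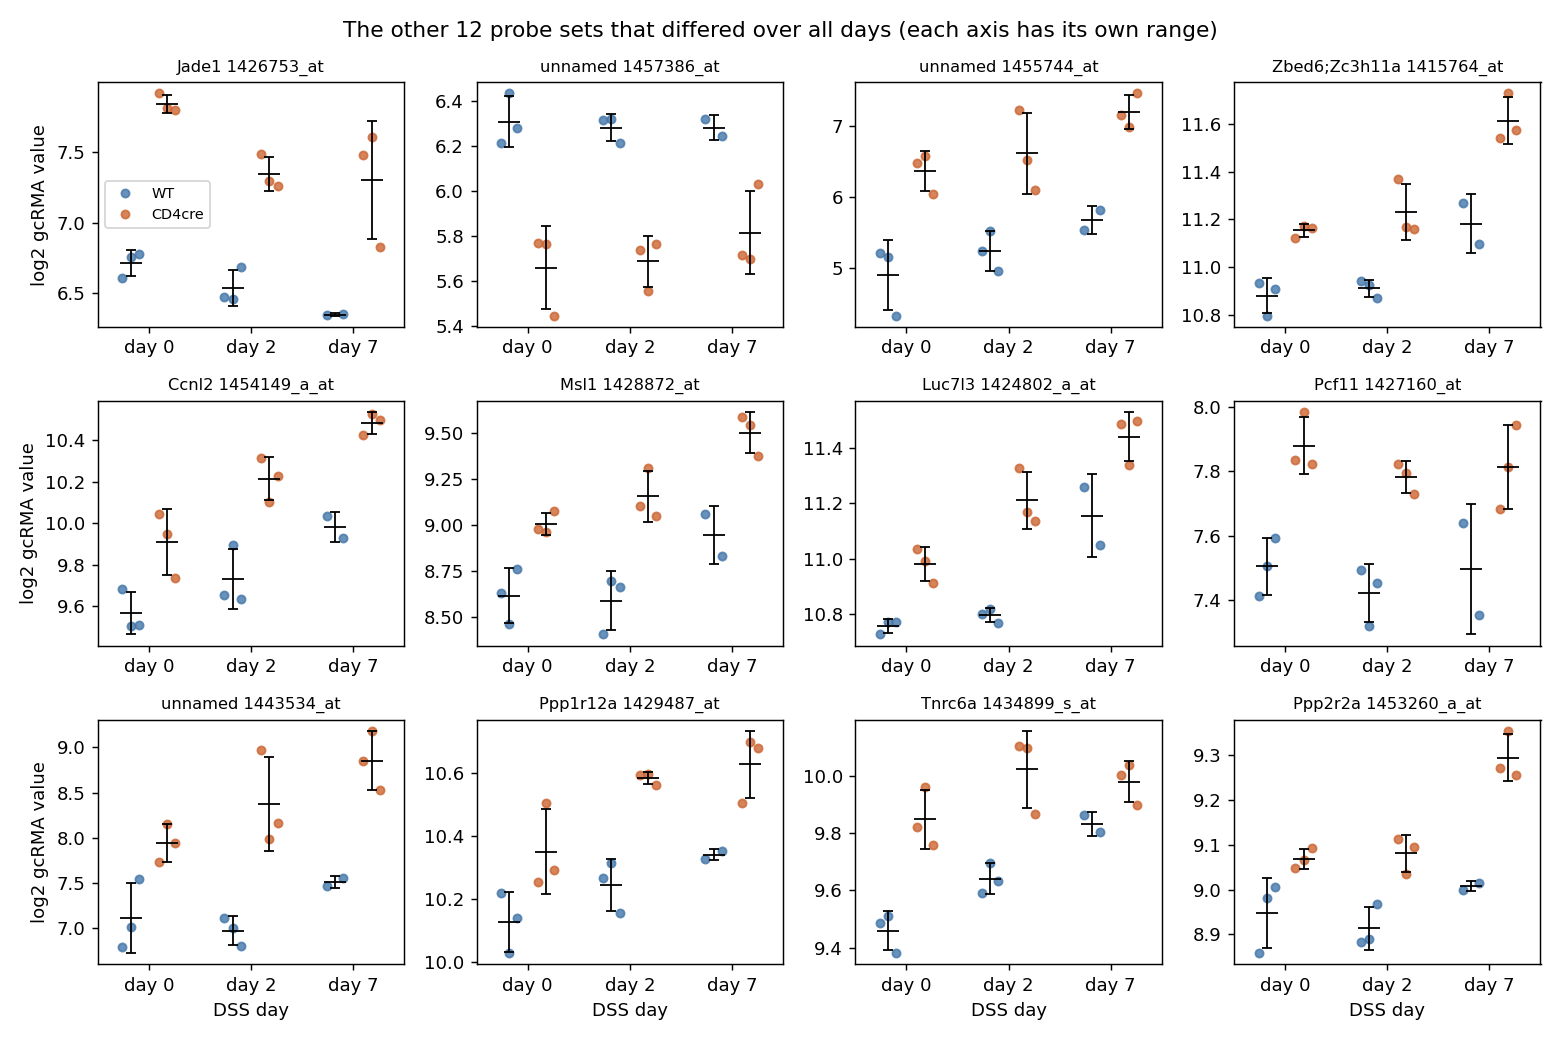
Log2 gcRMA values of the other 12 called probe sets in each array, by DSS day and genotype (blue WT, orange CD4cre; black marks are the group mean and SD, n = 3, and n = 2 for WT on day 7). Each panel has its own range, and within each day the genotypes do not overlap in any panel.

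Within each day the CD4cre and WT samples did not overlap for any of the 15 called probe sets. This was the case, in 1 direction on all 3 days, for 121 of all probe sets (0.269%). Over all 17 samples at once, 19 probe sets (0.0422%) had no overlap, of which 9 were called. Of the 10 that were not called, 4 were lower in CD4cre mice and lay below the background level with differences of -0.11 to -0.04 (all 5 probe sets without overlap on the lower side, the called 1457386_at included, are 0.0111% of those tested). The other 6 were higher, among them Zkscan3, a repressor of autophagy genes (0.46), Sltm, a protein related to the scaffold attachment factors (0.37), and Pla2r1, a receptor of secreted phospholipase A2 (0.71). Pla2r1 was named after its values were seen. Each of these values is that of 1 probe set. Probe sets 1422551_at and 1415689_s_at of Zkscan3 had differences of 0.03 and 0.003 and changed sign between days.

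The called probe sets were chosen by a fit with 1 difference for all days, so a test of genotype by day says nothing new about them; over all probe sets it called 63 (0.14%, limma F test on 2 degrees of freedom). The largest of the 3 daily differences fell on day 0 for 4 probe sets, on day 2 for 7 and on day 7 for 4. The daily tests use the same samples as the choice of the 15, so a higher share than over all probe sets follows from that choice. Tested on each day alone, 2 of the 15 were called on day 0, 3 on day 2 and 10 on day 7, against 0.00666%, 0.0422% and 1.51% of all probe sets. On day 0 and on day 2 these were probe sets of Wdfy1. The effect of the day itself was called for 6 of the 15, against 3.5% of all probe sets, and these were the probe sets of Zbed6 and Zc3h11a, Ccnl2, Msl1, Luc7l3, Ppp1r12a and Ppp2r2a, all higher on day 7 than on day 0 (0.15 to 0.50). A small residual SD, which favoured the choice of the 15, also favours a call of the day effect.

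**Figure D3:**
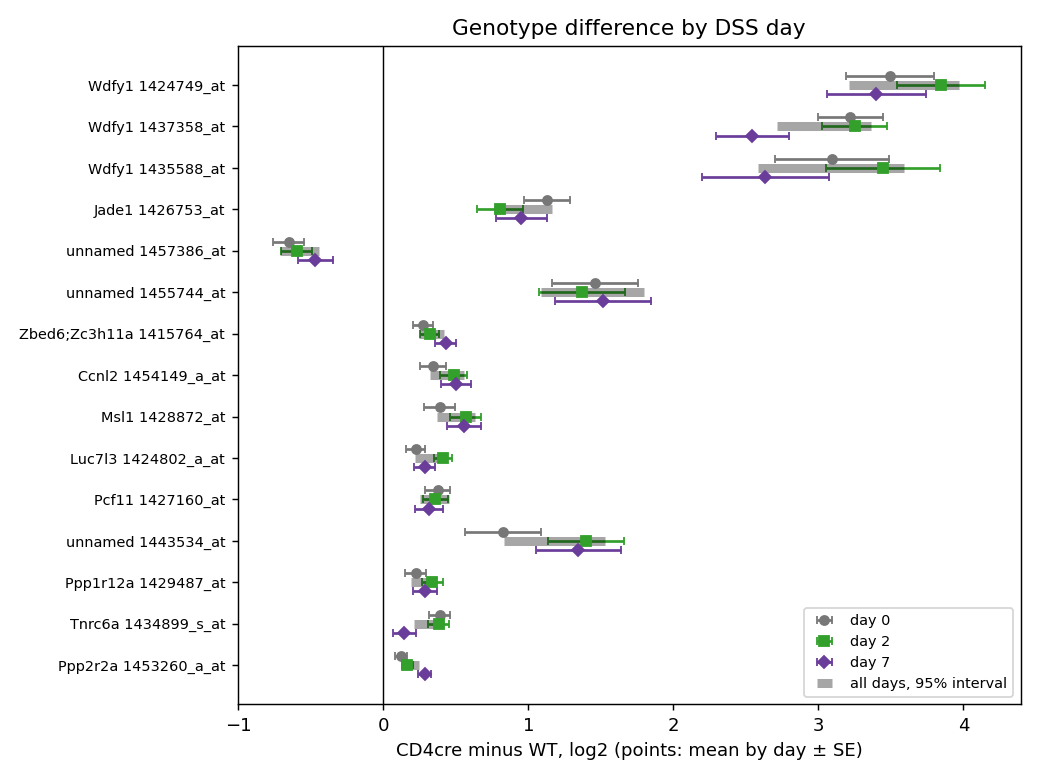
Difference of the mean log2 values, CD4cre minus WT, on day 0 (grey), day 2 (green) and day 7 (purple) with the SE from the model of 6 group means, for the 15 called probe sets in order of p. Grey bars are the 95% interval of the difference over all days, and 14 probe sets lie to the right of 0 and 1 to the left on each day.

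A model of 2 days can be read against the day it did not use. Without day 0 only 2 probe sets were called, both of Wdfy1, and both had the same sign on day 0, as did 63.5% of all probe sets. Without day 2 there were 5, all with the same sign on day 2 (63.3% of all). Without day 7 there were 12, of which 6 had the same sign on day 7 (59.7% of all), and the 6 were the ones also called over all days.

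Sign alone selected many more probe sets. The difference had the same sign on the 3 days for 18689 probe sets, 41.5% of those tested, of which 14464 were lower (32.1%) and 4225 were higher (9.38%). Most of the lower ones lay at or under the background level, where 11286 of 21487 probe sets had differences with the same negative sign and the median difference was -0.01. Above background the split was 3596 higher and 3178 lower of 23550. With an unadjusted p under 0.05 as a further condition there were 3707 (8.23%), and 29 probe sets had an adjusted p under 0.10. The called probe sets had mean levels of 5.99 to 11.16 and a median residual SD of 0.13, against 0.25 for all probe sets above background. A small residual SD makes a call more likely, so this contrast follows in part from the choice. The differences of the called probe sets, without regard to sign, ranged from 0.18 to 3.59 with a median of 0.50.

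**Figure D4:**
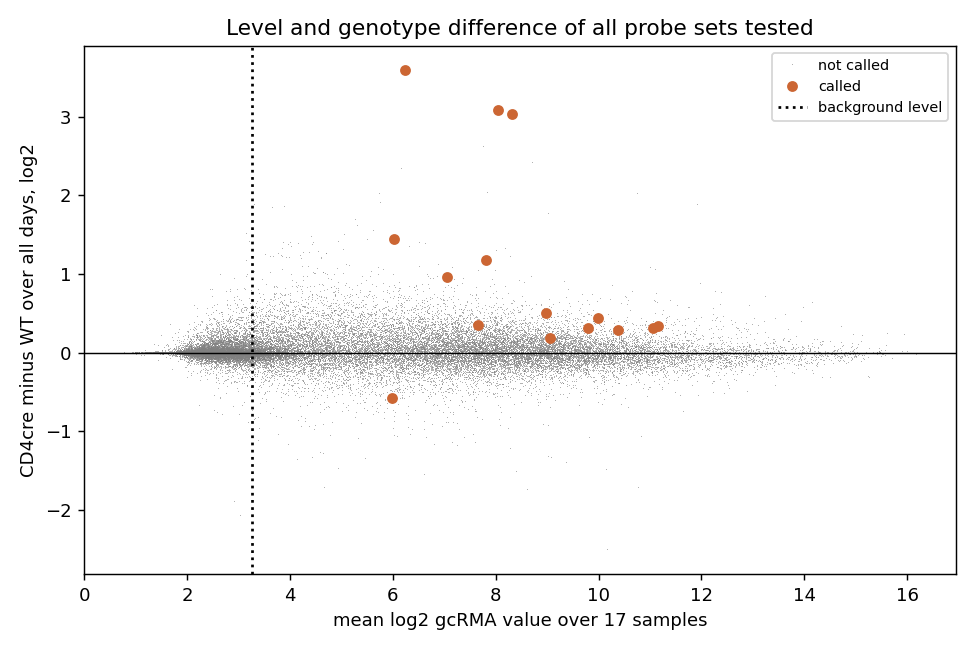
Mean log2 gcRMA value over the 17 arrays (horizontal) against the difference CD4cre minus WT over all days (vertical, log2) for the 45037 probe sets tested. The 15 called probe sets are orange and the dotted line is the background level of 3.26; the 3 points above 3 are Wdfy1.

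The 10 genes next in order of p had adjusted p values of 0.0653 to 0.0903 and were not called. Fip1l1, another subunit of the cleavage and polyadenylation machinery, had a difference of 0.27 (SE 0.04). Siah2, a ubiquitin ligase of the hypoxia response, had one of 1.05 (SE 0.17), and Fendrr, a long noncoding RNA next to Foxf1, one of 0.96 (SE 0.16). Map3k7, the kinase TAK1 downstream of Toll-like and interleukin 1 receptors, had 0.25 (SE 0.04), Stx12, a syntaxin of endosomes, 0.34 (SE 0.06), and Twistnb, a subunit of RNA polymerase I, 0.17 (SE 0.03). Tmpo, a protein of the nuclear lamina, was at -0.47 (SE 0.08) and Nucks1, a chromatin protein of dividing cells, at -0.35 (SE 0.06). Each of these genes was read by its probe set with the lowest p, and in these all 10 had the same sign on the 3 days. Other probe sets of the same genes varied. The brightest ones of Fip1l1 (1428280_at) and Stx12 (1448936_at) were at -0.09 and 0.09, and 1428633_at of Twistnb was at -0.36. The brightest one of Nucks1 (1433519_at) was at -0.23, in the same direction as the one named.

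Of 36 measured splicing factors 20 had the same sign on all 3 days, 9 higher and 11 lower, against 37.8% of all genes. Luc7l3 was the only one called, against 4 of 18193 genes called (0.022%, each gene read by its brightest probe set). At an unadjusted p under 0.05, 8 were higher and 11 lower, against 4.99% and 5.22% of all genes, and the median difference of the list was 0.03 against -0.01 for all genes. The members named next were chosen after their values were seen, and none of them was called (lowest limma adjusted p = 0.136). The kinases Clk1 and Clk4, which phosphorylate SR proteins, had differences of 0.49 and 0.42, Son, the core protein of nuclear speckles, 0.30, and the nuclear RNA Malat1 0.64. Of 5 Srsf genes, which encode SR proteins, 3 were lower on all days (Srsf1 at -0.19), and of 9 Hnrnp genes 5 were lower on all days (Hnrnpm at -0.28). None of these 14 was higher on all days. With the Gapdh 3' minus 5' difference as a covariate, 16 probe sets were called, 11 of them among the 15; the difference of Luc7l3 was then 0.31 (limma adjusted p = 0.056) and that of Ccnl2 0.44 (limma adjusted p = 0.0296).

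**Figure D5:**
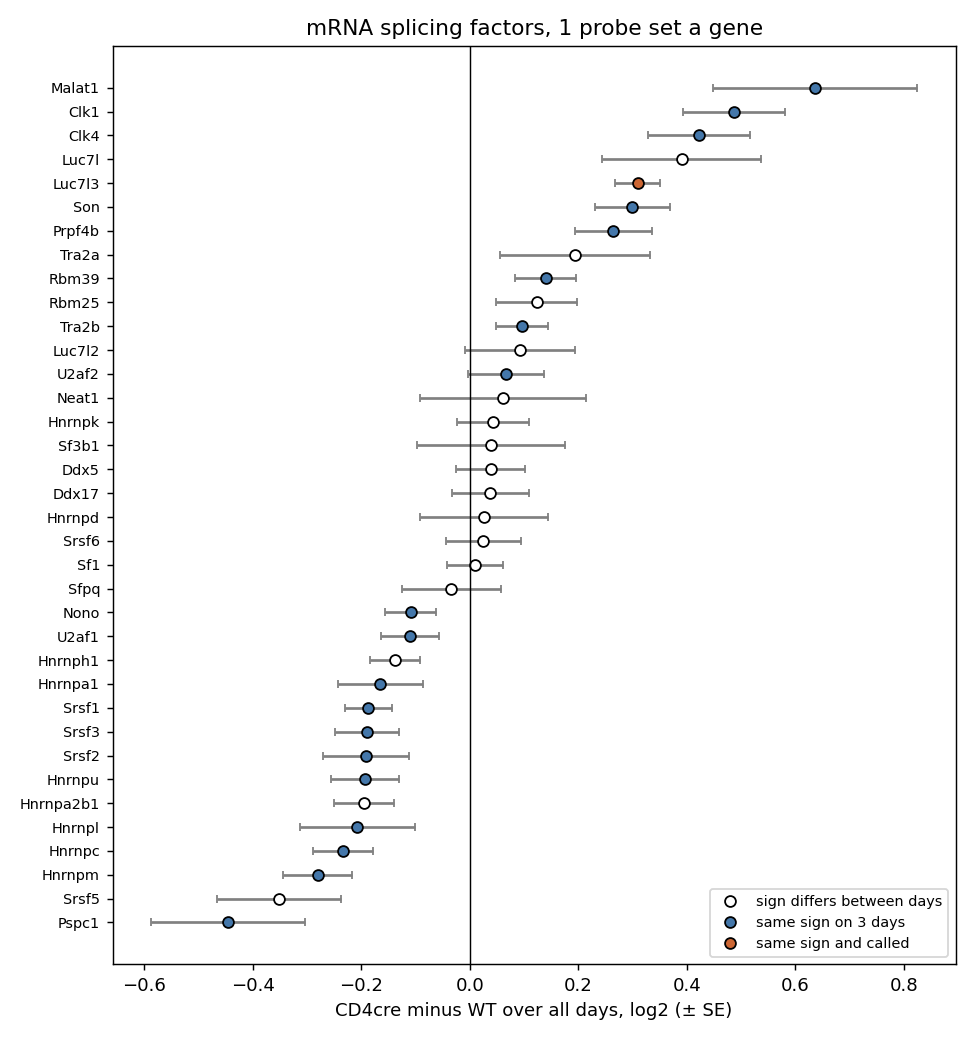
Difference CD4cre minus WT over all days (log2, bars are ± SE) for the 36 measured mRNA splicing factors, 1 probe set a gene. Filled points have the same sign on all 3 days; Luc7l3 (orange) was the only one called, the Clk kinases lie to the right, and most Srsf and Hnrnp genes lie to the left.

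In the list of Toll-like receptors and their adaptors Wdfy1 was the only called member of 20 measured. Over all genes 0.022% were called. Of the others, 1 was higher and 6 were lower on all 3 days, against 9.98% and 27.8% of all genes. The partners of Wdfy1 in the TRIF pathway had differences of -0.16 (Tlr3), 0.49 (Tlr4) and 0.14 (Ticam1, which encodes TRIF). None was called (limma adjusted p of 0.519 or more). Tlr4 and Ticam1 changed sign between days, Tlr4 with 0.79, -0.20 and 0.96 on days 0, 2 and 7. The list had a median difference of 0.02.

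No gene of the remaining lists was called. Of 12 measured PPAR receptors, partners and coactivators, 3 had the same sign on the 3 days, and of 23 PPAR target genes 5 did (1 higher, 4 lower; all genes 37.8%). The median difference of the target genes was -0.09. Of their 3 members with the highest levels, the epithelial keratin Krt20 had a difference of 0.06, Fabp2, which carries fatty acids, 0.06, and Klf4, an epithelial transcription factor, 0.29. Of 20 T cell markers 9 were lower on all 3 days and none higher (27.8% and 9.98% of all genes), with a median of -0.03. Bcl11b, a T cell transcription factor also made by other cells, was at -0.32 and Cd8a at -0.05. Thy1 was at -0.10 and changed sign, with -0.52, 0.08 and 0.21 on days 0, 2 and 7. Foxp3 and Il10 had mean levels of 2.30 and 2.14, below background. Genes of other tissues, used for the background level, behaved alike: 40 of 72 were lower on all days and none higher, with a median of -0.02.

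Of 25 proliferation genes 13 were lower on all 3 days and none higher, against 27.8% of all genes lower and 9.98% higher. Of the 25, 8 were lower at an unadjusted p under 0.05 (5.22% of all genes), and the median was -0.36 over all days. The 3 with the highest levels were the DNA clamp Pcna (-0.20) and the replicative helicase subunits Mcm5 (-0.23) and Mcm7 (-0.24). Of these only Pcna was lower on all 3 days, and Mcm5 and Mcm7 were at 0.03 and 0.29 on day 2. The daily medians of this list were -0.71, -0.05 and -0.39, so that day 2 was close to 0. Of 15 smooth muscle genes 8 were higher on all days and none lower (median 0.17), of 21 fibroblast and matrix genes 6 were higher (median 0.39), and of 12 endothelial genes 5 (median 0.23), against 9.98% of all genes. Of these 3 lists 2, 4 and 0 genes were higher at an unadjusted p under 0.05 (4.99% of all genes). Apart from the 6, the fibroblast and matrix genes were all lower on day 0 and higher on day 7. Col3a1, the member with the highest level, had differences of -0.22, 0.35 and 1.22 on days 0, 2 and 7. Of 24 genes of the absorptive epithelium 3 were higher and 4 lower, and of 23 monocyte and macrophage markers 1 was higher. The daily medians of this last list, -0.09, -0.20 and 1.18, changed sign between days.

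The extravasation markers and cytokine genes that the study names were not called over all days, and their differences were largest on day 7. None of the 7 markers and none of the 3 cytokine genes had the same sign on all 3 days. Il6, the cytokine that drives acute phase and STAT3 responses, had log2 values of 8.01 to 9.85 in CD4cre mice on day 7 (mean 8.76, n = 3) and of 2.10 to 2.17 in the other 14 samples, below the background level of 3.26. It was thus at least 45.2-fold higher in CD4cre than in WT mice on day 7, set against the background level, and no size is given for the days on which both genotypes lay below it. Over all days it was not called (limma adjusted p = 0.519). Icam1, an endothelial receptor for leukocyte integrins, had differences of 0.70, -0.19 and 2.37, and Itgb2, the integrin β2 subunit, -0.04, -0.41 and 1.63. The lists of B cells and antigen presentation had their largest daily medians on day 2, lower in CD4cre mice. Of 14 B cell markers, 6 of them with mean levels above background, 8 were lower on all 3 days and none higher (27.8% and 9.98% of all genes), and the daily medians were -0.01, -0.61 and -0.06. Of the 6 above background, only Ms4a1 and Cd79b were lower on all 3 days. At or under background, 11286 of 21487 probe sets of the array were lower on all 3 days. Ms4a1, which encodes CD20, had differences of -0.12, -2.79 and -0.87 and was not called (limma adjusted p = 0.363). Of 9 MHC class II genes 2 were lower on all days, with daily medians of -0.14, -1.25 and 0.09, and Cd74, the invariant chain, was at -0.14, -1.32 and 0.28. Of 10 lymphoid follicle genes 3 were lower on all days, with daily medians of -0.01, -0.86 and 0.36.

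The number of called probe sets depended on the arrays. Without the 3 arrays with pancreatic transcripts 4 were called, all 3 of Wdfy1 and 1455744_at, while Jade1 had a difference of 0.94 (limma adjusted p = 0.055) and Ccnl2 one of 0.44 (limma adjusted p = 0.055). Leaving out 1 array at a time gave 9 (without WT day 7 replicate 2) to 28 (without WT day 0 replicate 3), and Wdfy1, Jade1, Ccnl2, Msl1, 1415764_at, 1455744_at and 1457386_at were called each time.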

How the data were processed

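Total RNA of colon was hybridized to Affymetrix mouse genome arrays. The study calls the tissue colonic mucosa in some places and colon in others, and the sample titles say colon. Whether the muscle wall was part of the samples was not stated. The authors adjusted for background, normalized and summarized the arrays with gcRMA in R 2.9.0, and the deposited values are log2 values. Of 45101 probe sets 64 controls were left out and no filter was used. A model of DSS day and genotype was fitted to the 17 samples with limma 3.58.1 (R 4.3.3) (13 residual and 0.853 prior degrees of freedom). A second model of 6 group means gave the daily differences and the test of genotype by day. Replicates are arrays, and p-values measure the spread between them. Gene names came from the platform annotation, updated through Entrez identifiers (34945 probe sets with 1 gene, 932 with several, 9160 with none). Named genes were all called ones, the 10 next by p, genes the study names and, for lists with none called, up to 3 members of highest level; exceptions are marked. Members and lists were chosen with earlier results of these data known. The fit was tested on simulated data. Replicate numbers were checked for pairing: within a day, same-numbered samples had correlations of -0.45 to 0.35, so the numbers do not pair the samples. The labels give no batch, and the number of arrays limits the precision.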

Additional observations from a re-analysis of the deposited data

Results flagged for a closer look

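Among the 30 groups of 8 or 9 samples examined for a lone extreme value, 1 had one, and chance gives about 1 in 20. In WT mice the Wdfy1 probe set 1435588_at had a log2 value of 4.91 in WT day 2 replicate 1, and the nearest other WT sample was at 6.35. Both other Wdfy1 probe sets had no such gap in this sample.

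The genotype difference of Il6 differed between days (test of genotype by day, limma adjusted p = 0.000151). Its log2 values were 8.01 to 9.85 in CD4cre mice on day 7 and below the background level of 3.26 in the other 14 samples, so that the difference on day 7 is a lower bound of 45.2-fold.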

How the results depend on the processing

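The difference of Wdfy1 stayed called in all 32 alternatives in which it was refitted (3.45 to 3.72), and no called gene changed its sign. Jade1 stayed called in 28 of 32, Ccnl2 and Msl1 in 25, Pcf11 in 24, Luc7l3 in 21, Ppp1r12a in 9, Tnrc6a in 8 and Ppp2r2a in 6. Against 15 probe sets called with the same sign on the 3 days, the count was 7 with no day covariate, 46 for the mean of the 3 daily differences (61 called with any signs), 10 with a trended and robust prior, 96 with array weights, 32 with the Hox score as a covariate (34 with any signs), 4 without the samples with pancreatic transcripts, 2 without day 0 and 5 without day 2. It was 9 at an adjusted p under 0.01 and 29 under 0.10. Leaving out 1 array at a time gave 9 to 28. Alternatives chosen after seeing the data were the Gapdh covariate (16) and the removal of CD4cre day 7 replicate 2 with the pancreatic samples (3). With a replicate block, 6 probe sets were called; the numbers do not pair the samples. The causes of these shifts were not tested.

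The number of list members called was 2. It was 5 for the mean of the daily differences, 4 with array weights and 1 with no day covariate, the robust prior, the low-value filter, the replicate block, either removal of pancreatic samples, any left-out day, an adjusted p under 0.01 or the Gapdh covariate, and 1 to 2 without 1 array. Called neighbours of Pparg were 2 with array weights and 0 to 1 without 1 array. Without 1 array the test of genotype by day called 26 to 1112, and the daily tests called 3 to 18 (day 0), 16 to 140 (day 2) and 311 to 3081 (day 7).

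Differences that were not called changed sign in some settings. Without day 7 they were -0.165 for Itgax, 0.0355 for Nnt, 0.0625 for Pparg, -0.00499 for Itgav, -0.228 for Itgb2, -0.0885 for Selp, -0.0150 for Il6, -0.377 for Socs3 and -0.00897 for Cd3e. Itgax was at -0.0211 with array weights, -0.0491 with the Gapdh covariate and -0.223 without the pancreatic samples and CD4cre day 7 replicate 2, where Pparg was at 0.114. Pparg was at 0.119 without day 0, Madcam1 at 0.342 without day 2, and Nnt at 0.0601 with the replicate block and 0.0076 with the Gapdh covariate. Without 1 array at a time, Pparg ranged from -0.2443 to 0.07583, Nnt from -0.07073 to 0.0601, Itgax from -0.1303 to 0.164 and Cd3e from -0.01163 to 0.05238.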
